A study of Mus musculus with 6 samples.

Results

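The 47 genes described here drive DNA replication and mitosis, and they were followed in macrophages sorted from mouse omentum (OM) and mesentery (MY) before and after injection of ovarian cancer cells. They were taken by symbol from a list, 28 with roles in mitosis and 19 in replication, and all 47 were found among the 23946 genes of the expression table. Female C57BL/6 mice of 6 to 8 weeks were either naive or received ID8 cells, a mouse ovarian surface epithelial cancer line of the same strain, by intraperitoneal injection, and were killed after 24 h or 7 d. Macrophages were sorted as CD45+CD11b+F4/80+ cells. The paper describes pools of 3 omenta per sample and gives no pool size for the mesentery. The 6 conditions (OM naive, OM 24h, OM 7d, MY naive, MY 24h and MY 7d) have 1 library each, so a comparison always describes 2 libraries, without a p-value and without any check against replicates. Pooling, where it was done, averages the mice of a condition but leaves no measure of their spread.

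A dividing cell first licenses its replication origins with the MCM helicase, raises its supply of deoxynucleotides and copies its DNA under cyclin E and cyclin A kinases. It then builds up cyclin B with CDK1, assembles a spindle, and separates the chromosomes once the anaphase-promoting complex destroys cyclin B and securin. Genes of the first step are classical targets of E2F factors, whereas many mitotic genes carry a CCAAT box and a cell cycle genes homology region (CHR) near the start of transcription, through which the DREAM complex holds them down in resting cells and MYB-MuvB with FOXM1 switches them on late in the cycle. Tissue macrophages can renew themselves by such local division.

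Promoters are shown for the members with the largest increase in the omentum in each class, with Mcm5 and Bub1b added because one carries all 3 motifs and the other followed a course of its own. Each is the RefSeq sequence of the GRCm38.p6 build from 250 bases before to 50 bases after the start, written 5′ to 3′ along the gene. Capitals mark letters that match a CCAAT box (CCAAT), a CHR (the canonical TTTGAA and the variant TTTAAA) or an E2F motif on either strand, and matches may overlap. The E2F motif was searched in 4 spellings, of which the first is TTCCCGC, the second is TTGGCGC, the third is TTCGCGC and the last is TTGCCGC. Ccnb1 (cyclin B1, chr13:100786437-100786736, minus strand) and Kif11 (the kinesin that pushes spindle poles apart, chr19:37376132-37376431, plus strand) had the largest increases among mitotic members at 24 h and 7 d. Tk1 (thymidine kinase, chr11:117825965-117826264, minus strand) and Cdc45 (part of the active replicative helicase, chr16:18811923-18812222, minus strand) were chosen in the same way among replication members with a motif. Mcm5 (a subunit of the same helicase, chr8:75109259-75109558, plus strand) and Bub1b (the spindle checkpoint protein BubR1, chr2:118597961-118598260, plus strand) complete the set.
Ccnb1: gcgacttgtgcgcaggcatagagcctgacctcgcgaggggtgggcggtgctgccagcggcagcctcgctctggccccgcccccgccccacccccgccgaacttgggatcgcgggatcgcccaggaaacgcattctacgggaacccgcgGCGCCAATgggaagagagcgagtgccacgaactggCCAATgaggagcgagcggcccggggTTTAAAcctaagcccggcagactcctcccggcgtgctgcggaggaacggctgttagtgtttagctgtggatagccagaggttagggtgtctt
Kif11: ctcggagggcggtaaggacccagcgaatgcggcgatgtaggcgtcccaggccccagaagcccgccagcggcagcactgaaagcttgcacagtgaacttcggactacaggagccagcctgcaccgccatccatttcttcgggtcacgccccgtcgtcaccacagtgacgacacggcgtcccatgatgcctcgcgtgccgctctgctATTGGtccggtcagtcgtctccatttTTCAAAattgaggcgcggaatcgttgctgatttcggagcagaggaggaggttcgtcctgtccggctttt
Tk1: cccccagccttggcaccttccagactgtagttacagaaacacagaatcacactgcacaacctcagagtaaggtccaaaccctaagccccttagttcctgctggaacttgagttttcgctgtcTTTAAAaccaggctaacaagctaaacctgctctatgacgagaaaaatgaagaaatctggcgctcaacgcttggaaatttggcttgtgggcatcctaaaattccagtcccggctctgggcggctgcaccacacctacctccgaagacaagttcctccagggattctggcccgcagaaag
Cdc45: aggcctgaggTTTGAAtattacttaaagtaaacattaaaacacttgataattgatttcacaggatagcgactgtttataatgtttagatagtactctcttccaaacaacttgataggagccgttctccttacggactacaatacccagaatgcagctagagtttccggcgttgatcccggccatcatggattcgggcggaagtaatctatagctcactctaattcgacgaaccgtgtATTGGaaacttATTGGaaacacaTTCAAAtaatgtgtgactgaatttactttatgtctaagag
Mcm5: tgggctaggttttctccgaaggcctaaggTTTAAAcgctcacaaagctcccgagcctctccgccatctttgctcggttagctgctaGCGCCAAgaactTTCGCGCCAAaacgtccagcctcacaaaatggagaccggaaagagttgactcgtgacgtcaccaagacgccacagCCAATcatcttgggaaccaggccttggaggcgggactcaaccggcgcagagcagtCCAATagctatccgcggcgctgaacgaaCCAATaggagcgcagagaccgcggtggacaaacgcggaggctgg
Bub1b: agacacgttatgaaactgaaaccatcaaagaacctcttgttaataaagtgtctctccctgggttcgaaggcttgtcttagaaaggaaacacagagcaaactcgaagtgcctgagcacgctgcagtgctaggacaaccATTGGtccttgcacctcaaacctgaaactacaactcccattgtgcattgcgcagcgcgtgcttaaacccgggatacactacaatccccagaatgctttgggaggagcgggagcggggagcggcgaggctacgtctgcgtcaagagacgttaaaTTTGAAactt
In Ccnb1, CCAAT boxes began at -99 and -67 from the start and a CHR at -42. The only E2F match in Ccnb1, GCGCCAA from -102 to -96, shared bases with the upstream CCAAT box. Kif11 had the same pair closer in, with ATTGG, the reverse complement of a CCAAT box, at -45 and a CHR at -19. Mcm5 held 3 E2F matches between -164 and -143, the last 2 of which overlap, as well as 3 CCAAT boxes. Its only CHR lay far upstream, at -221. Bub1b had a CCAAT box at -113 and a CHR inside the transcribed part, at 41. Tk1 had a single match, a CHR at -128.

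The table of 300-base promoters held 39 of the 47 members, 23 mitotic and 16 replication, and 9774 of the 13064 expressed genes. Shares are of genes with an entry, and a gene was counted where any of its listed promoters matched. A CHR was found for 20 of the 23 mitotic members (87%), 7 of the 16 replication members (43.8%) and 22.8% of expressed genes. CCAAT boxes followed the same order, with 19 mitotic (82.6%), 10 replication (62.5%) and 42.6% of expressed genes. Both elements in the same promoter were present for 18 mitotic members (78.3%), 5 replication members (31.2%) and 9.08% of expressed genes. Between the classes E2F matches had the opposite order, for 9 replication members (56.2%), 5 mitotic members (21.7%) and 18.9% of expressed genes. Over all genes of the table, whether expressed here or not, the shares were 30.6% for CHR, 41.1% for CCAAT and 10.9% for E2F. The mitotic promoters without a CHR match were those of Bub1, Nusap1 and Tacc3. These are matches of letters in a short window; they are neither binding sites nor causes, and a promoter without one may hold the element elsewhere or in another spelling. Mcm4, Gins2, Ccne2, Ccna2, Foxm1, Aurkb, Kif20a and Tpx2 had no entry.

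Expression was given as FPKM, fragments scaled to transcript length and to all mapped fragments of the library, which allows levels to be compared between genes. Differences are in log2(FPKM + 1), and a gene is called higher or lower where this difference was at least 1 (2-fold). This scale understates differences of low genes. All 47 members reached 1 FPKM in at least 1 library, as did 13064 genes in all, and 43 members reached it in every library. No member was listed at 0, although Cd74, a gene of antigen-presenting cells, was listed at 0 in OM 24h. In bulk samples, fewer cells of a type and less RNA per cell cannot be told apart, and the same holds for a larger share of dividing cells and more transcript in each. FPKM sums ran from 526887 in MY naive to 713863 in OM 24h. Relative sequencing depth, estimated from the smallest values, was between 0.855 (OM naive) and 1.495 (OM 7d) times that of MY naive, and the number of reads behind each value is unknown.

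The macrophage markers were present in every library. Emr1, which encodes F4/80, was at 27.4, 135 and 26.5 FPKM in the omentum from naive to 7 d and at 20.5, 68.6 and 37.5 FPKM in the mesentery. The summed FPKM of the 7 macrophage markers found ran from 284 (MY naive) to 2264 (OM 24h). Markers of other cells were also present, at a mean log2(FPKM + 1) of 5.66 to 8.14 for 6 B cell markers and of 4.33 to 8.48 for 6 neutrophil markers. Summed markers of T cells were between 23.7 (OM 24h) and 977 FPKM (MY 7d). The levels of the cell cycle genes are therefore those of the sorted mixture, and the part of each cell type in them was not tested.

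Mitotic genes were higher 24 h after injection in the omentum, and replication genes much less so. In OM 24h, 15 of 28 mitotic members were at least 2-fold above OM naive (53.6%, against 11.9% of all expressed genes) and none was lower, where 6.45% of expressed genes were. The median mitotic difference was 1.04, and all 28 were above 0. Among replication members, 2 of 19 passed 2-fold, Tk1 and Gins2 (10.5%), none was lower and the median difference was 0.31. The median over all expressed genes was 0.00. Every mitotic member except Mki67 and Ttk lay above the replication median. When every library was rescaled to the same FPKM sum, 7 rather than 15 mitotic members passed 2-fold, and that scaling moved the median of all genes by -0.17.

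**Figure D1:**
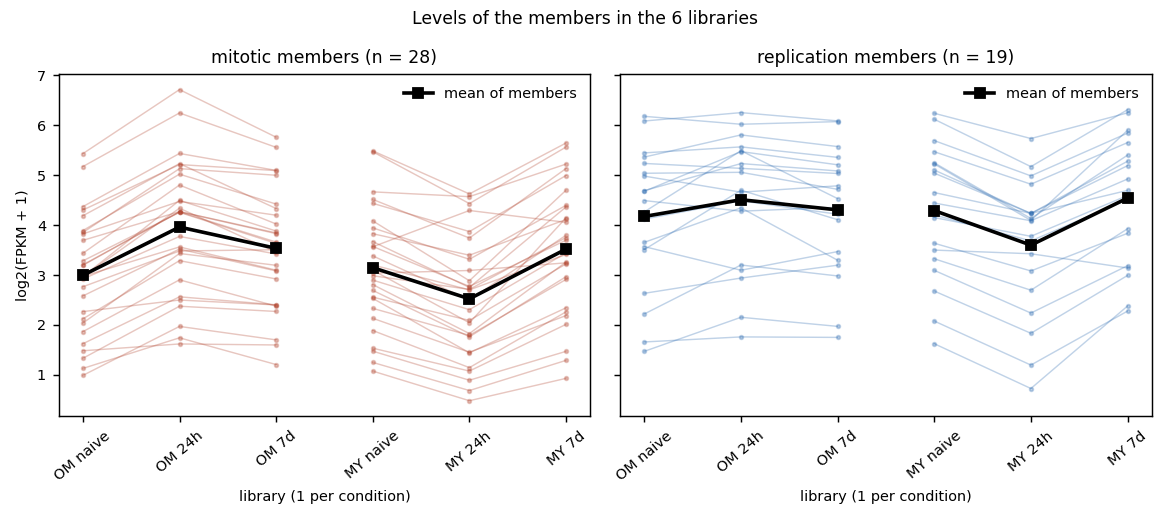
Level of the 47 members in each of the 6 libraries (x axis) as log2(FPKM + 1) (y axis), mitotic and replication genes in separate panels. Thin lines join the values of a gene within a tissue, and black squares are the class mean. The mitotic mean is highest in OM 24h, at 3.96, and both means are lowest in MY 24h, at 2.52 and 3.60.

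Cyclins and their kinase showed this course. Ccnb1 was at 6.83, 21.5 and 13.7 FPKM in OM naive, OM 24h and OM 7d and 7.56, 3.12 and 16.7 FPKM in MY naive, MY 24h and MY 7d. It was highest in OM 24h and lowest in MY 24h, and its difference of 1.53 between OM 24h and OM naive was the largest of any member. Ccna2, cyclin A2, which acts in both S phase and mitotic entry, was at 13.8, 31.4 and 20.4 FPKM in OM naive, OM 24h and OM 7d and 16.0, 6.39 and 25.0 FPKM in MY naive, MY 24h and MY 7d. Its OM 24h library was again the highest, by 1.13 over naive, and MY 24h the lowest. Cdk1, the kinase that both cyclins activate, was at 8.21, 18.2 and 11.6 FPKM in the omentum from naive to 7 d and at 8.21, 5.51 and 9.64 FPKM in the mesentery. Cyclin B2 (Ccnb2) had a difference of 0.91 in OM 24h, just short of 2-fold. Foxm1, the transcription factor of late cell cycle genes, was low throughout, at 2.65, 6.48 and 4.20 FPKM in the omentum and 3.39, 1.74 and 3.56 FPKM in the mesentery, and passed 2-fold in OM 24h with 1.04.

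Kinases of the spindle and its checkpoint were mostly higher in OM 24h as well. Plk1, which matures centrosomes and triggers many mitotic steps, was at 9.82, 26.9 and 15.2 FPKM in OM naive, OM 24h and OM 7d and 11.7, 5.74 and 19.6 FPKM in MY naive, MY 24h and MY 7d. The OM 24h value exceeded the other 5, with a difference of 1.37 from naive. Aurora kinases A and B (Aurka, Aurkb) differed from OM naive by 1.08 and 1.04. Birc5, or survivin, the partner of Aurora B at the centromere, was at 35.1, 74.9 and 46.1 FPKM in the omentum and 43.8, 23.7 and 49.0 FPKM in the mesentery. Of the checkpoint kinases, Bub1 passed 2-fold (1.04) while Ttk, at 0.61 to 2.07 FPKM, differed by only 0.14.

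Bub1b followed a course of its own. It was at 6.57, 12.7 and 9.72 FPKM in OM naive, OM 24h and OM 7d and 10.8, 18.6 and 15.6 FPKM in MY naive, MY 24h and MY 7d. Thus MY 24h, the lowest library of 25 of the 28 mitotic members, was its highest. It was the only mitotic member below 0 when OM 24h was compared with MY 24h, at -0.52. None of its differences reached 2-fold in these 6 within-tissue comparisons. Kif23 and Cenpa were the other members of the class whose lowest library was not MY 24h; all 3 were lowest in OM naive.

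Among partners of the anaphase-promoting complex, Ube2c was the most abundant mitotic member in all 3 omental libraries. Ube2c, its ubiquitin-conjugating enzyme, was at 42.1, 104 and 53.2 FPKM in OM naive, OM 24h and OM 7d and 43.3, 20.6 and 46.3 FPKM in MY naive, MY 24h and MY 7d. OM 24h stood 1.28 above naive and well above the other 5 libraries. Cdc20, an activator of the same complex, was at 13.4, 34.0 and 31.0 FPKM in OM naive, OM 24h and OM 7d and 21.8, 12.4 and 34.1 FPKM in MY naive, MY 24h and MY 7d. Here OM 24h, OM 7d and MY 7d were alike, and the naive and MY 24h libraries were lower. At the centromere, the histone variant Cenpa differed by 1.06 in OM 24h, the motor Cenpe by 0.98 and Cenpf by 0.61. Cenpe and Cenpf were below 3 FPKM in every library.

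Spindle motors and microtubule binders were above OM naive in OM 24h too. Kif11 was at 3.11, 9.79 and 8.16 FPKM in OM naive, OM 24h and OM 7d and 5.47, 2.4 and 6.82 FPKM in MY naive, MY 24h and MY 7d. Its OM 24h value was 1.39 above naive, and OM 7d still 1.16. Prc1, which bundles the microtubules of the central spindle, was at 6.83, 19.2 and 9.97 FPKM in the omentum and 6.46, 3.95 and 9.88 FPKM in the mesentery, a difference of 1.37 in OM 24h. Kif2c, a microtubule depolymerase, differed by 1.17. Nusap1, Tpx2, Hmmr, Kif20a, Tacc3 and Kif23 were between 0.59 and 0.97 and did not pass. The proliferation marker Mki67 was at 3.82, 4.66 and 4.28 FPKM in OM naive, OM 24h and OM 7d and 4.79, 1.72 and 4.07 FPKM in MY naive, MY 24h and MY 7d. It differed by 0.23 in OM 24h, and its highest library was MY naive. Top2a, the topoisomerase that untangles sister chromatids, differed by 0.58.

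The MCM helicase stood apart from this course in the omentum. The 6 subunits had a median difference of -0.04 in OM 24h, from -0.32 for Mcm4 to 0.44 for Mcm7. Mcm5 was at 31.8, 32.3 and 25.3 FPKM in OM naive, OM 24h and OM 7d and 33.4, 17.8 and 35.5 FPKM in MY naive, MY 24h and MY 7d. Mcm6, the most abundant subunit, was at 71.4, 63.9 and 66.3 FPKM in OM naive, OM 24h and OM 7d and 68.5, 35.0 and 78.3 FPKM in MY naive, MY 24h and MY 7d. In both, the omental libraries differed little, and MY 24h was the lowest by far. Mcm2 was at 36.7, 34.2 and 31.7 FPKM in the omentum and 37.0, 16.5 and 41.2 FPKM in the mesentery. The sliding clamp Pcna was the most abundant member in OM naive after Mcm6, at 66.9, 75.2 and 67.0 FPKM in the omentum and 74.5, 52.2 and 75.0 FPKM in the mesentery. Of the 4 factors that license or fire origins, Cdt1 (-0.21), Cdc6 (0.10) and Cdc45 (0.31) were near their naive level in OM 24h, and Gins2 was higher (1.19).

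Nucleotide supply was the replication role whose members all lay above naive by more than 0.5 in OM 24h. Its median was 0.89, from 0.54 for Rrm1 to 1.22 for Tk1. Tk1, which salvages thymidine, was at 18.2, 43.9 and 22.1 FPKM in OM naive, OM 24h and OM 7d and 16.8, 12.7 and 23.1 FPKM in MY naive, MY 24h and MY 7d. OM 24h was the highest library by a wide margin. Rrm2, the regulated subunit of ribonucleotide reductase, was at 24.6, 43.4 and 35.9 FPKM in OM naive, OM 24h and OM 7d and 36.4, 16.1 and 58.6 FPKM in MY naive, MY 24h and MY 7d. Here MY 7d was the highest library and OM 24h came next. Thymidylate synthase (Tyms) was at 3.66, 8.20 and 6.90 FPKM in the omentum and 5.41, 2.56 and 6.95 FPKM in the mesentery. Gins2, a helicase cofactor, was at 10.4, 25.0 and 16.2 FPKM in the omentum, 1.19 higher at 24 h.

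Regulators of entry into S phase did not move as one. E2f1, the factor that drives replication genes, was at 11.6, 19.3 and 8.82 FPKM in OM naive, OM 24h and OM 7d and 10.3, 9.75 and 7.82 FPKM in MY naive, MY 24h and MY 7d. It was highest in OM 24h, 0.69 above naive, and was the only member at least 2-fold lower in OM 7d than in OM 24h (-1.05, beside 4.52% of expressed genes). That call was lost with a pseudocount of 5 and with libraries rescaled to equal sums, which moved the median of all genes by 0.36. Cyclin E1 (Ccne1) was at 10.9, 7.55 and 10.1 FPKM in the omentum and 9.03, 5.48 and 14.2 FPKM in the mesentery, and was the member furthest below 0 in OM 24h, at -0.47. Cyclin E2 (Ccne2) was at 1.78, 3.45 and 2.92 FPKM in the omentum and 2.08, 0.656 and 4.20 FPKM in the mesentery. Uhrf1, which guides maintenance methylation behind the fork, differed by 0.37.

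**Figure D2:**
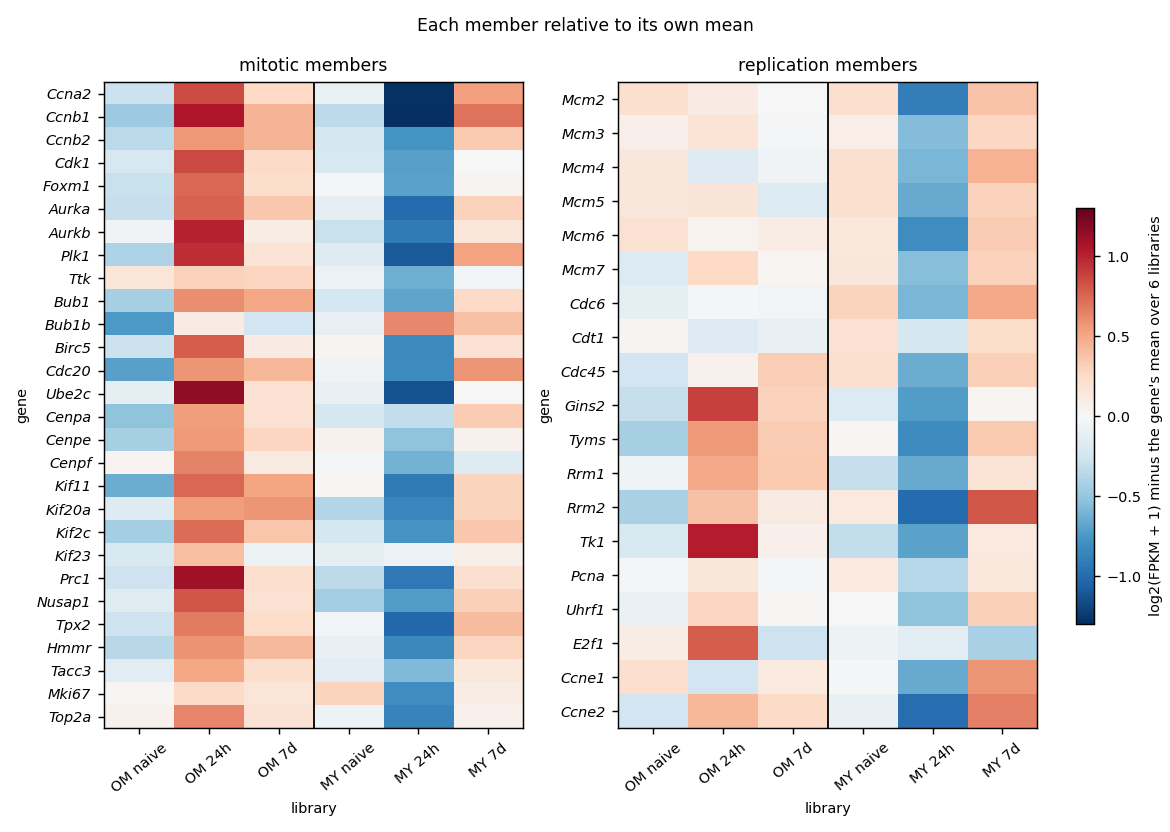
Heat map of the 47 members (rows, ordered by role) in the 6 libraries (columns), coloured by log2(FPKM + 1) minus the gene's own mean over the 6 libraries, red above and blue below it. OM 24h is the highest library of 24 of 28 mitotic members and MY 24h the lowest of 25, while Bub1b is highest in MY 24h.

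By 7 d the omental value lay between naive and 24 h for 27 of 28 mitotic members. Kif11 and Cdc20 (1.15) were the only mitotic members at least 2-fold above OM naive, 2 of 28 beside 11% of all expressed genes, and none was 2-fold lower (1.96%). The median mitotic difference was 0.51 and all 28 were above 0, from 0.08 for Cenpf. For replication members the median was 0.09 and none passed 2-fold. Directly against OM 24h, the median mitotic difference of OM 7d was -0.43, and none passed 2-fold either way (4.52% of expressed genes were lower and 7.03% higher). Kif20a, at 5.80, 10.2 and 10.4 FPKM in OM naive, OM 24h and OM 7d, was the only mitotic member above its OM 24h value. With libraries rescaled to equal sums, the mitotic median was -0.11. Both omental comparisons with naive use the same OM naive library, so they are not independent.

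In the mesentery the values at 24 h lay on the other side of naive. MY 24h was below MY naive for 26 of 28 mitotic members, with a median of -0.61, and 4 passed 2-fold lower (14.3%, against 1.52% of expressed genes). These were Ccna2 (-1.20), Mki67 (-1.09), Ccnb1 (-1.05) and Ube2c (-1.04). All 19 replication members were below MY naive, with a median of -0.71, and Rrm2 (-1.13) and Mcm2 (-1.11) passed 2-fold. None of the 47 was 2-fold higher, as 2.8% of expressed genes were. The MCM subunits had a median of -0.84 and a narrow range, from -1.11 to -0.65. With libraries rescaled to equal sums, 8 mitotic and 8 replication members passed 2-fold lower. That scaling shifted the median of all genes by -0.09.

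At 7 d the mesenteric values were back at or above naive. Against MY naive, 25 of 28 mitotic members and 18 of 19 replication members were above 0, with medians of 0.43 and 0.20. Only Ccnb1 passed 2-fold, with 1.05 (0.498% of expressed genes did), and no member was 2-fold lower (2.29%). From MY 24h to MY 7d the differences were larger, and 16 mitotic (57.1%) and 8 replication members (42.1%) were at least 2-fold higher beside 1.84% of expressed genes. None was 2-fold lower, as 3.54% were. The medians were 1.06 and 0.95, and the largest differences were those of Ccnb1 (2.10) and Rrm2 (1.80). This comparison and that of MY 24h with naive share the MY 24h library, whose low values enter both.

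Library by library, OM 24h was the highest for 24 of 28 mitotic members, as it was for 21.9% of all expressed genes. MY 24h was the lowest for 25 (17.1% of expressed genes). The exceptions at the top were Kif20a (OM 7d), Mki67 (MY naive), Bub1b (MY 24h) and Cdc20 (MY 7d). Replication members had their highest value more often in MY 7d (12 of 19, beside 14.7% of expressed genes) than in OM 24h (6 of 19). Their lowest was MY 24h in 18 of 19. E2f1 was the exception, with its lowest value in MY 7d.

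Mitotic relative to replication levels differed more between the omental than between the mesenteric libraries. The mean log2(FPKM + 1) of mitotic members was 3.00, 3.96 and 3.53 in OM naive, OM 24h and OM 7d, and 3.15, 2.52 and 3.52 in MY naive, MY 24h and MY 7d. For replication members the means were 4.17, 4.51 and 4.31 in the omentum and 4.29, 3.60 and 4.54 in the mesentery. Mitotic minus replication gave -1.18, -0.55 and -0.77 in OM naive, OM 24h and OM 7d. In the mesentery it gave -1.14, -1.08 and -1.02. On the linear scale, the median mitotic member went from 6.84 FPKM in OM naive to 18.2 FPKM in OM 24h, and the median replication member from 21.5 to 25.0 FPKM. In MY 24h the medians were 5.09 and 16.0 FPKM, each below its MY naive value of 7.38 and 20.7 FPKM.

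Before injection, none of the 28 mitotic or 19 replication members differed by 2-fold between OM naive and MY naive, while 8.18% of expressed genes were higher in the omentum and 8.05% lower. The medians were -0.19 for mitotic and -0.08 for replication members. At 24 h, 24 of 28 mitotic members (85.7%) and 7 of 19 replication members (36.8%) in OM 24h exceeded MY 24h by at least 2-fold, beside 13.9% of expressed genes. No member was 2-fold lower, where 10.2% of expressed genes were. The medians were 1.47 and 0.82. Ccnb1 had the largest tissue difference, 2.45, and among replication members Tk1, 1.71. All 4 genes of nucleotide supply passed, but of the MCM subunits only Mcm2, which lay just at the limit. These comparisons use the same libraries as those within each tissue. At 7 d no member was past 2-fold, with medians of 0.05 and -0.29, although 14.1% of expressed genes were higher in the omentum and 4.99% lower.

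Within each tissue, 26 of 28 mitotic members lay on opposite sides of their naive value at 24 h, higher in the omentum and lower in the mesentery. So did 14 of 19 replication members, and 4966 of 13064 expressed genes lay on opposite sides in either order. For 14 mitotic members (50%) both steps were at least 1.5-fold, which held for 3 of 19 replication members (15.8%: Tyms, Rrm2 and Ccne2) and 1.45% of expressed genes. The same count at 7 d was 0 in both classes and 1.64% of expressed genes. The difference between tissues could not be tested with 1 library each.

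**Figure D3:**
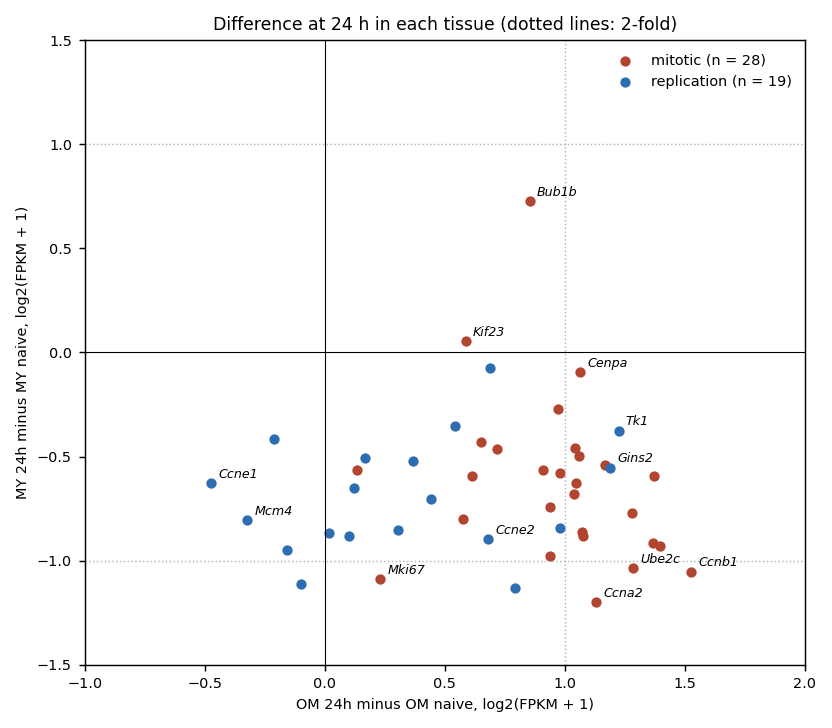
Log2(FPKM + 1) difference from naive to 24 h in the omentum (x axis) against that in the mesentery (y axis), 1 point per member, by class. Most mitotic members lie to the lower right, with Ccnb1 at 1.53 and -1.05 and Bub1b above 0 on both axes at 0.85 and 0.73.

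The other genes of the cell cycle were described by lists that did not include the members. Of 66 expressed genes of mitosis and cytokinesis, 20 exceeded OM naive by at least 2-fold at 24 h (30.3%, beside 11.9% of all expressed genes), none was lower (6.45%), and the median was 0.66. Iqgap3, a scaffold protein, went from 1.48 to 7.11 FPKM (1.71), Anln, which encodes the contractile ring protein anillin, from 1.60 to 7.41 FPKM (1.69), and Cdca3 from 8.37 to 26.8 FPKM (1.57). In MY 24h their median was -0.45 with 3 past 2-fold lower beside 1.52% of expressed genes, Shcbp1 (-1.26), the phosphatase gene Cdc25b (-1.23) and the kinesin gene Kif18b (-1.07). Of 54 other genes of replication and S phase, none passed 2-fold in OM 24h, where 11.9% of expressed genes were higher and 6.45% lower, and the median was 0.05. In MY 24h their median was -0.37, and genes past 2-fold lower included Ung (-1.26), of DNA repair, and Cdca7 (-1.15). Between tissues at 24 h, 34 of the 66 mitosis genes were higher in OM 24h with a median of 1.02, against 2 of the 54 replication genes with a median of 0.23 and 13.9% of expressed genes. The replication gene with the largest difference, Gins3, which encodes another subunit of the GINS complex, was at 2.63 FPKM in OM 24h and 12.1 FPKM in MY 24h (-1.85). Gins3 was also lower in the omentum before injection (3.22 against 8.89 FPKM, -1.23) and at 7 d (4.37 against 7.51 FPKM). Pbk (2.28) and Troap (2.03) led the first list.

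Upstream regulators gave no common direction, and their counts in OM 24h are to be read against the 11.9% of expressed genes that were higher and the 6.45% that were lower. Of 17 expressed genes for E2F, MYB and DREAM factors, Mybl2, a subunit of the activating complex at CHR elements, was higher in OM 24h (1.45 to 4.24 FPKM, 1.10). Rb1, the retinoblastoma protein that restrains E2F, was lower (33.3 to 14.0 FPKM, -1.19). The median was -0.19. Among 10 G1 cyclins, kinases and their partners, Skp2 (1.10), Cdk6 (1.10) and Cks1b (1.06, also counted in the mitosis list) were higher and Ccnd2 and Myc lower. Ccnd2, cyclin D2, was at 143, 30.6 and 76.8 FPKM in OM naive, OM 24h and OM 7d and 65.2, 51.1 and 56.1 FPKM in MY naive, MY 24h and MY 7d. Myc was at 262, 64.1 and 147 FPKM in OM naive, OM 24h and OM 7d and 61.4, 37.4 and 66.0 FPKM in MY naive, MY 24h and MY 7d. Both were highest in OM naive and lowest of the omental libraries in OM 24h, the library with the highest mitotic level, with differences of -2.19 and -2.02. Summed B cell markers had the same order, at 4093, 937 and 2540 FPKM in OM naive, OM 24h and OM 7d. The part of B cells in the levels of Ccnd2 and Myc was not tested. Among 18 cell cycle inhibitors, Cdkn1a, which encodes p21, was at 50.6, 152 and 72.5 FPKM in OM naive, OM 24h and OM 7d and 46.2, 60.0 and 28.1 FPKM in MY naive, MY 24h and MY 7d, 1.56 higher in OM 24h. Wee1, the kinase that inhibits CDK1, was lower in OM 24h (-1.06). Of 12 checkpoint genes 1 was lower, Atm (-1.03), a share near that of all expressed genes. Among 8 macrophage growth factor and receptor genes, 3 were higher in OM 24h, with Csf2ra (1.18) and Csf1 (1.17) beside Csf1r. Csf1r, the receptor that sustains macrophages, was at 132, 569.8 and 103 FPKM in OM naive, OM 24h and OM 7d and 121, 313 and 192 FPKM in MY naive, MY 24h and MY 7d, and was higher at 24 h in both tissues (2.10 and 1.37). Whether Csf1r has any bearing on the levels of the members was not tested.

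**Figure D4:**
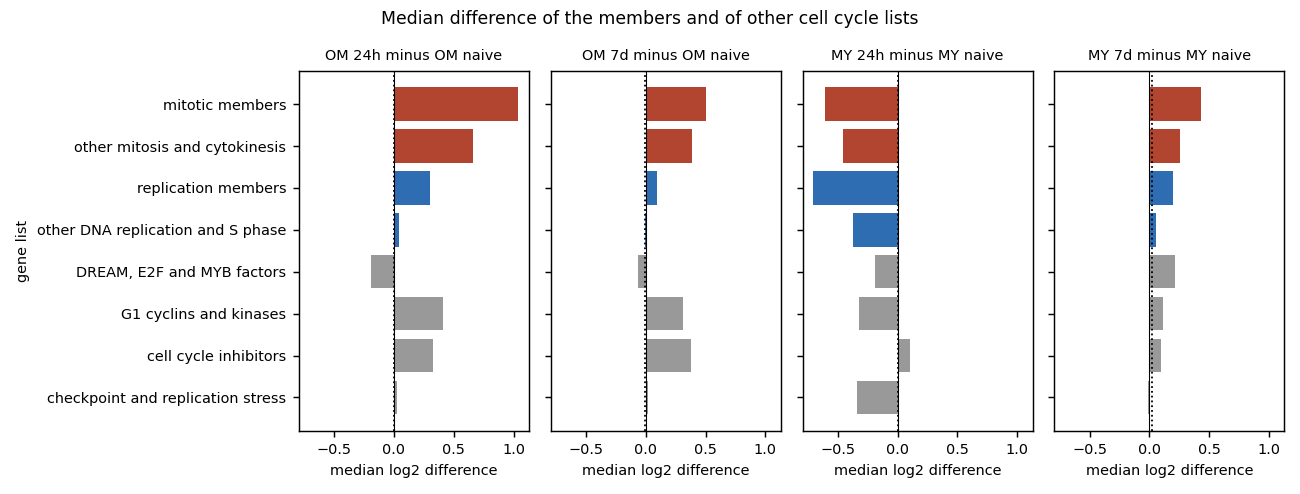
Median log2(FPKM + 1) difference of the member classes and of the other cell cycle lists (bars) in 4 comparisons with the naive library of the same tissue; the dotted line is the median of all expressed genes. In OM 24h against OM naive the mitotic members (1.04) and other mitosis genes (0.66) lie above the replication members (0.31) and other replication genes (0.05).

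Markers of other cell types moved with these results, and their part in them was not tested. From OM naive to OM 24h, 6 of 7 macrophage markers were at least 2-fold higher and none lower, and their summed FPKM went from 602 to 2264. All 6 neutrophil markers were higher (5893 to 13741 FPKM), all 6 B cell markers lower (4093 to 937 FPKM), all 6 NK cell markers lower (273 to 18.7 FPKM) and 5 of 6 T cell markers lower (98.9 to 23.7 FPKM). Of 8 mesothelial and epithelial markers, 6 were higher and 1 lower (105 to 992 FPKM); ID8 cells are themselves epithelial, and these markers do not separate them from mesothelium. Krt19 went from 25.4 to 406 FPKM and Upk3b from 23.7 to 215 FPKM, while Epcam, the lower marker, went from 13.0 to 5.45 FPKM. The 7 immature granulocyte markers were divided, with 3 higher and 3 lower. Ltf (213 to 523 FPKM), Camp (440 to 1294 FPKM) and Ngp (970 to 2352 FPKM) were higher. Elane (118 to 39.4 FPKM), Mpo (84.0 to 8.49 FPKM) and Ctsg (11.6 to 1.41 FPKM) were lower. While the sum of all 7 went from 1873 to 4247 FPKM, their mean log2(FPKM + 1) went from 6.94 to 6.48. In OM 7d the mesothelial and epithelial list summed to 978 FPKM and the immature granulocyte list to 5749.6 FPKM. Ngp (2613 FPKM) and Camp (2128 FPKM) were the most abundant genes of the latter list. In the mesentery the mesothelial and epithelial list was at most 10.2 FPKM in any library, with Wt1 at 0 in MY naive and MY 7d.

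From MY naive to MY 24h, 4 of 7 macrophage markers were at least 2-fold higher (284 to 636 FPKM) and none lower. The summed level of 7 germinal centre and plasma cell markers was 783, 197 and 1251 FPKM in MY naive, MY 24h and MY 7d, with 3 of 7 at least 2-fold lower at 24 h and 3 higher from 24 h to 7 d. Igj, which encodes the joining chain of secreted antibody, went from 428 to 47.2 to 751 FPKM, and thus was low in the same library as the members. B cell markers summed to 847, 563 and 1621 FPKM, with 0 of 6 past 2-fold at 24 h and 6 of 6 higher from 24 h to 7 d. T cell markers summed to 849.6, 467 and 977 FPKM, with 2 of 6 lower and then 4 higher. Immature granulocyte markers summed to 274, 83.1 and 1.36 FPKM, with 4 of 7 at least 2-fold lower and 1 higher at 24 h, and 4 lower from 24 h to 7 d, when the members were higher. In OM 24h the plasma cell list summed to 540.2 FPKM, against 1137 FPKM in OM naive. Of its 7 markers, 3 were at least 2-fold lower there and 1, Sdc1, was higher (13.0 to 32.8 FPKM). What part such cells had in the levels of the members was not tested.

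**Figure D5:**
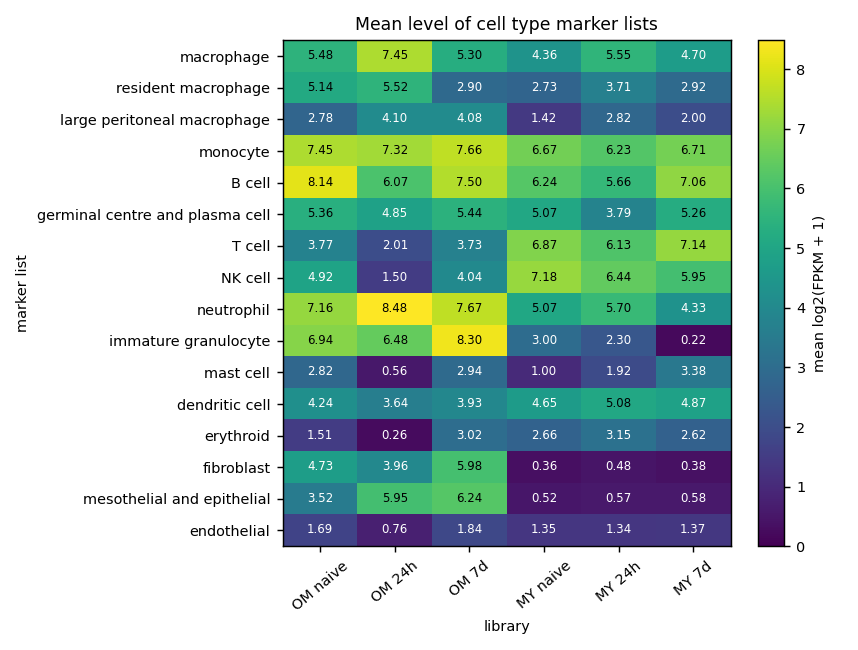
Mean log2(FPKM + 1) of the marker lists of macrophages and other cell types in each library. B cell markers are at 8.14 in OM naive and 6.07 in OM 24h, and the plasma cell list is at 5.07 in MY naive and 3.79 in MY 24h.

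All 47 members were placed in an annotation (GENCODE) of the NCBI37 (mm9) build, which is the build of the FPKM values, on 17 chromosomes. Of these, 14 overlap another annotated gene, 7 in each class, and whether fragments were assigned by strand is not given in the sources used here. Tk1 shares 10567 bases with Afmid on the other strand, and Afmid had 5.76, 4.51 and 4.87 FPKM in the omental libraries while Tk1 had 18.2, 43.9 and 22.1 FPKM. Gins2 overlaps Gse1, which was at 8.24 FPKM in OM naive and 3.99 FPKM in OM 24h, opposite in direction to Gins2. Mcm7, Kif20a, Ube2c, Ccna2, Cdc20 and Nusap1 also have an overlapping neighbour. From OM naive to OM 24h, Oip5 (over Nusap1) went from 1.47 to 4.38 FPKM, in the same direction as the member. So did Elovl1 (over Cdc20, 77.3 to 104 FPKM) and Cops6 (over Mcm7, 146 to 187 FPKM). Cdc23, over Kif20a, was lower (15.1 to 11.3 FPKM). Whether overlapping genes contributed to the values of the members was not tested. The processed pseudogene Tyms-ps was at most 0.0211 FPKM in any library.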

How the data were processed

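Macrophages of mouse omentum and mesentery were profiled by bulk RNA sequencing in 6 conditions with 1 library each. The authors checked reads with FastQC 0.11.4, aligned them to the mm9 build with STAR 2.4.2a and deposited FPKM values per gene, made with Cufflinks. FPKM keeps no read counts, so no count test was run. Relative depth was estimated from values below 0.1 FPKM as the commonest ratio between 0.5 and 2 of the same gene in 2 libraries.

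Differences were taken on log2(FPKM + 1) among 13064 genes with at least 1 FPKM in at least 1 library, with 2-fold as the limit. The members, gene lists and markers were chosen with earlier results of these data known. All members could be named. Of the other lists, up to 3 genes furthest in each direction past 2-fold were named in a comparison described, and marker genes with their values. Csf1r belongs to the markers too, and Ccnd2 and Myc were followed through all libraries. Alternatives were pseudocounts of 0.1 and 5, rescaling by median ratios or to a sum of 1000000, no filter or a filter in every library, limits of 1.5-fold and 3-fold, the mean in place of the median, narrower replication classes and, chosen after seeing the data, a filter of 5 FPKM and members without overlapping genes. Promoters came from a RefSeq table of 32851 promoters of 27025 genes (GRCm38.p6); no coordinates were converted between builds. The scripts (Python 3.11.15, pandas 2.3.3, numpy 2.4.6, matplotlib 3.10.9) were tested on simulated data. Some items of the lists are not reported here.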

Additional observations from a re-analysis of the deposited data

Results flagged for a closer look

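From naive to 24 h, the median log2(FPKM + 1) difference of the 28 mitotic members was 1.04 in the omentum and -0.61 in the mesentery, so the tissues lay on opposite sides of their naive libraries. The same held, with at least 2-fold each way, for Ccna2 (1.13 and -1.20), Ccnb1 (1.53 and -1.05) and Ube2c (1.28 and -1.04). With 1 library per condition, the difference between tissues was not tested.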

How the results depend on the processing

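Every class median and every mitotic minus replication difference stayed within 1.5-fold (0.58 in log2) of its reported value under all alternatives run. Many of these values are themselves smaller than 0.58, and a change of sign among those was not counted. For MY 24h against MY naive, mitotic minus replication went from 0.10 to -0.17 with a pseudocount of 0.1. For OM 7d against OM naive, the replication median went from 0.09 to -0.09 without members that overlap another gene. Of 144 recomputed counts past the limit, 44 moved by more than 1.5 times, as did 23 of 1692 single-member values. None of the latter changed direction past 2-fold. The cause of the shifts was not tested beyond the construction of each setting.

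In OM 24h against OM naive, the 15 higher mitotic members became 5 with a pseudocount of 5, 7 with rescaling to a sum of 1000000, 25 at 1.5-fold and 0 at 3-fold, and the 2 replication members became 1, 2, 6 and 0. In OM 7d against OM naive, the 2 higher mitotic members became 0, 4, 12 and 0 in the same order and 5 with a pseudocount of 0.1, while 2 replication members passed 1.5-fold. In OM 7d against OM 24h, 1 lower replication member, E2f1, became 0 with a pseudocount of 5, with rescaling to that sum and at 3-fold, and 3 at 1.5-fold, where 9 mitotic members also passed. In MY 24h against MY naive, the 4 lower mitotic members became 11 with a pseudocount of 0.1, 0 with 5, 8 with rescaling, 16 at 1.5-fold and 0 at 3-fold, and the 2 replication members became 5, 0, 8, 12 and 0. In MY 7d against MY naive, 1 higher mitotic member became 0 with a pseudocount of 5, 6 at 1.5-fold and 0 at 3-fold, and 3 replication members passed 1.5-fold. In MY 7d against MY 24h, the 16 mitotic and 8 replication members became 5 and 3 with a pseudocount of 5, 3 and 2 at 3-fold, and 16 replication members passed 1.5-fold. In OM 24h against MY 24h, 24 and 7 became 15 and 3 with a pseudocount of 5 and 10 and 2 at 3-fold, and 14 replication members passed 1.5-fold. At 1.5-fold, 3 mitotic members were lower in OM naive than in MY naive, and 1 replication member lower in OM 7d than in MY 7d.

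Rescaling to equal sums moved the median of all expressed genes to -0.17 in OM 24h against naive, 0.12 and 0.36 in OM 7d against naive and 24 h, -0.19 in OM naive against MY naive and -0.27 in OM 24h against MY 24h. Under it the replication median of OM 7d against OM 24h was 0.13 instead of -0.18. No paired analysis was possible because the tissues and times hold a lone library apiece, and no library could be left out of a comparison. Read depth behind each FPKM value is unknown.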

Other observations

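Some regulators outside the lists of replication and mitosis differed between the tissues before any injection. Cdkn2b, which encodes the CDK4 and CDK6 inhibitor p15, was at 1.69, 2.69 and 3.11 FPKM in the omentum (naive, 24 h, 7 d) and at 36.0, 56.6 and 32.0 FPKM in the mesentery, a difference of -3.78 in log2(FPKM + 1) between the naive libraries. All 3 mesenteric libraries were above all 3 omental ones, and T and NK cell markers were also higher in the mesenteric libraries. In the other direction, Myc (2.08), Rb1 (1.31) and Ccnd2 (1.12) were higher in OM naive than in MY naive. B cell markers were also higher there, summing to 4093 FPKM in OM naive and 847 FPKM in MY naive. The part of other cell types in these differences was not tested. None of the 47 replication and mitosis genes passed 2-fold in that comparison.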
